A study of Mus musculus with 8 samples.

Results

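The nuclear pore complex genes described here were 30 of the 34299 genes in a table of read counts from mouse brain. They were selected on their names: every symbol that begins with Nup and a number, plus Pom121, Ndc1, Tpr, Rae1, Seh1l, Sec13, Aaas, Ahctf1 and Gle1. The family itself was chosen by looking at results of both comparisons below, so its counts of calls are given as a description and nothing is supported with them. All 30 genes had enough reads to be tested in both comparisons, and 28 encode parts of the canonical pore. The other two, Nup210l and Nup62cl, are relatives of Nup210 and Nup62.

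The nuclear pore complex is the channel through the nuclear envelope that most traffic of proteins and RNA between nucleus and cytoplasm takes. A ring set in the membrane holds an inner ring and a pair of outer rings, the outer ones built of Y-shaped subcomplexes. Proteins rich in phenylalanine and glycine repeats fill the central channel and bind the transport receptors, while filaments reach into the cytoplasm and a basket reaches into the nucleus. Scaffold proteins of the pore are known to be very long-lived in neurons, which no longer divide, and dividing cells must build new pores.

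The libraries were made from whole brain and fall into 3 groups: wild-type (WT) fetuses at gestation day 15 (n = 3), Cav1 knockout (KO) fetuses at gestation day 15 (n = 3), and Cav1 KO mice at week 70 (n = 2). Cav1 encodes caveolin 1, the coat protein of the membrane pits called caveolae, and both KO groups carry the knockout in the whole animal. Nothing in the labels gives the strain, sex or litter, whether libraries were prepared in batches, or a matched WT group at week 70. The fetal libraries are stated to be biological replicates. For the week 70 libraries nothing says that they came from separate animals, so their p-values measure only the spread between those samples.

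Total counts ran from 19414747 to 20833397 in the WT fetal libraries, from 14110031 to 15245283 in the KO fetal libraries and from 18924304 to 20203233 at week 70. Depth thus separates the fetal genotypes, and a batch of sequencing and the genotype cannot be told apart. Cav1 itself had 367, 218 and 329 counts in the WT libraries, 0, 3 and 1 in the KO fetal libraries and 1 and 5 at week 70. Markers of neurons were present in every library, at 4473 to 8218 CPM (read counts scaled to a common library size) summed over 7 genes.

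Promoters are shown first for members that the results turn on, because these genes moved in different directions. A promoter of 300 bases (250 before to 50 after the start site) was held for 25 of the 30 genes in RefSeq on build GRCm38.p6. The lines give the 120 bases up to the start site for Pom121 (chr5:135394547-135394666, minus strand), Nup62 (chr7:44815968-44816087, plus strand), Nup133 (chr8:123949266-123949385, minus strand), Nup37 (chr10:88146872-88146991, plus strand) and Nup107 (chr10:117792706-117792825, minus strand). They read 5′ to 3′ on the strand of the gene, and capitals mark matches to the NRF1, ETS or NFY motif on either strand.
Pom121: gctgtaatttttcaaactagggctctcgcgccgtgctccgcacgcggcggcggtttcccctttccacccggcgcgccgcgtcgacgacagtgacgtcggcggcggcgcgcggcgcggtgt
Nup62: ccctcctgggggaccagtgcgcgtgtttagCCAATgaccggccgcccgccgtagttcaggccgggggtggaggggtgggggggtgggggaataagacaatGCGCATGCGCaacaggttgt
Nup133: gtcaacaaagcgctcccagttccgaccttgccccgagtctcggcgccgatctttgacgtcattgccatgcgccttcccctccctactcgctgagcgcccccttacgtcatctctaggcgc
Nup37: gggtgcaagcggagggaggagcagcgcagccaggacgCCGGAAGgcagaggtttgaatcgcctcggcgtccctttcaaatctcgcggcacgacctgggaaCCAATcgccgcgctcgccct
Nup107: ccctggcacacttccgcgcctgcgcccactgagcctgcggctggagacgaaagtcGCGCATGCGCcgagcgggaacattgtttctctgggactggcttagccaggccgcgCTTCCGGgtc

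The NRF1 motif GCATGCGC reads almost the same on both strands, so the matches in Nup62 and Nup107 overlap into a single run of 10 capitals. It was held by 3 of the 25 members with a promoter (Nup107, Nup50 and Nup62), 12% of them. Among the 12497 genes tested in the fetal comparison that had a promoter, 5.37% held it. A gene with more than 1 promoter window counted if any of them held the motif. The ETS motif CCGGAAG was in 8 members (32%, against 17.5%), among them Nup37, Nup107, Sec13, Rae1 and Gle1. The YY1 motif GATGGCGG was in 5 (20%, against 3.66%): Ndc1, Nup188, Nup205, Nup50 and Nup88. The NFY motif CCAAT was in 10 (40%, against 42.5%), and an E2F motif, TTTGGCGC or TTTCCCGC, only in Nup210 among the 25 (4%, against 3.1%). Pom121 and Nup133 held none of these letters in the window. A match describes the sequence and does not show that a factor binds there.

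Summed over the 30 genes, normalised expression was 1981, 1974 and 1869 CPM in the WT fetal libraries and 1352, 1341 and 1379 CPM in the KO fetal libraries. At week 70 it was 960.5 and 988 CPM. The 3 groups did not overlap, and their means were 1942 ± 62.9 (SD, n = 3), 1357 ± 19.2 (SD, n = 3) and 974 ± 19.5 CPM (SD, n = 2). In whole tissue, fewer cells of a type and less RNA per cell cannot be told apart. CPM values were scaled over all 8 libraries, whereas each fold change below was scaled within its own comparison, so that the ratio of 2 printed levels can differ slightly from the fold change.

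**Figure D1:**
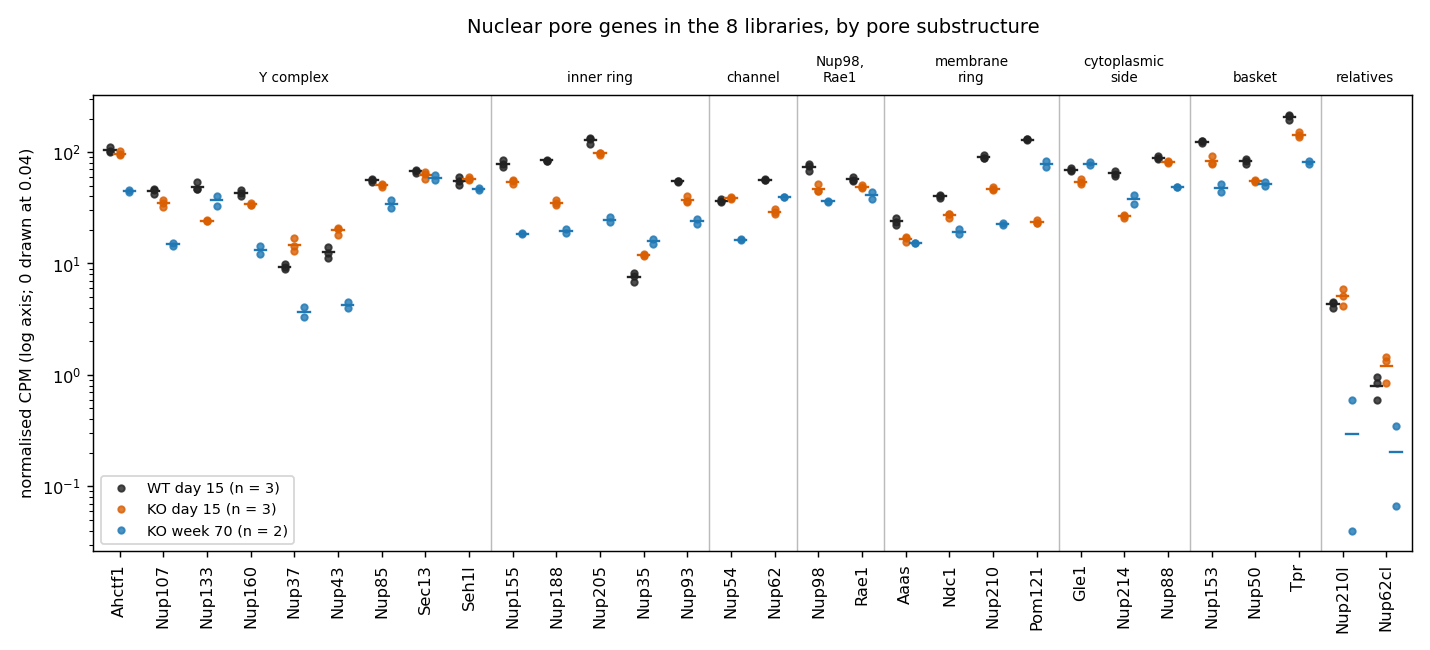
Normalised CPM (log axis) of each of the 30 genes in each library, grouped by pore substructure. Points are libraries and short bars are group means; Pom121 is the gene with the widest gap between the fetal genotypes, with means of 129.5 and 23.6 CPM.

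By substructure, the membrane ring had the lowest ratio of KO to WT in the fetal brain. Its 4 genes summed to 284 ± 6.73 CPM in WT, 114 ± 1.87 CPM in KO at day 15 (SD, n = 3 each) and 136 ± 7.82 CPM at week 70 (SD, n = 2). Of these genes, only Pom121 had a higher mean at week 70 than in KO at day 15 (129.5, 23.6 and 78.6 CPM in the 3 groups). The means of Nup210, Ndc1 and Aaas were lower at each step. The inner ring summed to 353, 235 and 103 CPM in the same order. The nuclear basket summed to 413, 282 and 181 CPM, and the Y complex to 441, 395 and 257 CPM. The cytoplasmic side stood at 223, 161.5 and 164.8 CPM, so that its scaled sum in KO brain was nearly the same at both ages. Within it, Gle1 and Nup214 rose between these ages and Nup88 fell. Its median log2 fold change with age was 0.412, but -0.356 after a correction for transcript length and GC content. The scaling factors (TMM) were 1.17 to 1.18 in KO fetuses and 0.751 and 0.767 at week 70, so that sums compared between these groups depend on the scaling.

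**Figure D2:**
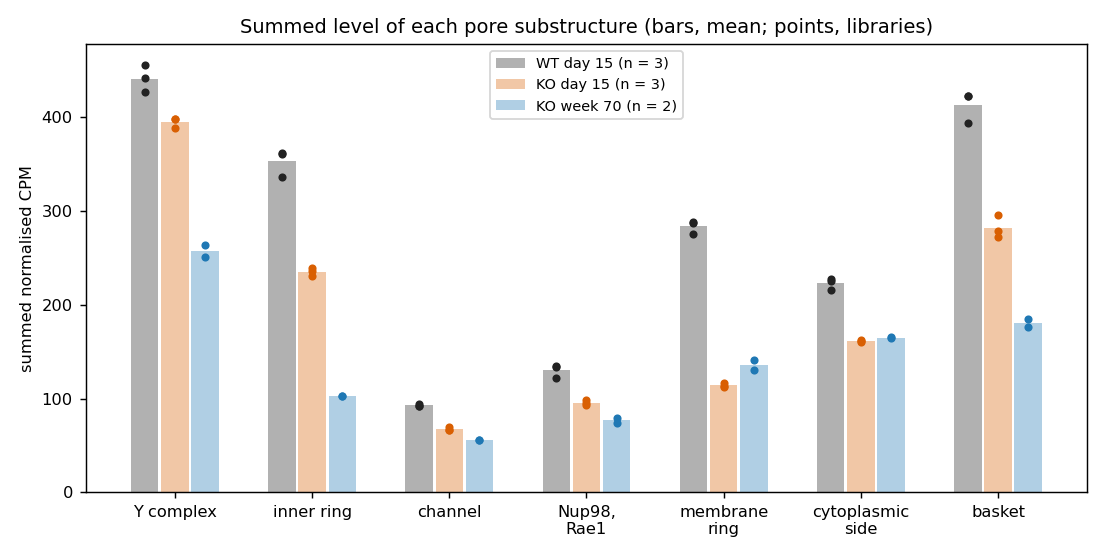
Summed normalised CPM of the genes of each pore substructure. Bars are group means and points are libraries; the membrane ring had 284 CPM in WT and 114 CPM in KO at day 15, and the inner ring had 353, 235 and 103 CPM in the 3 groups.

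Levels of different genes were compared per kilobase of exon, summed over all annotated exons. For Pom121 this length equalled that of its longest transcript (5580 bases). It was 3184 bases against 1599 in the longest transcript for Sec13, and 2554 against 1742 for Rae1. The order of genes and the shares below thus depend on the length used. In WT fetal brain the highest of the 30 was Pom121 at 23.2 CPM per kb, followed by Rae1 at 22.3, Sec13 at 21.1, and Nup62 and Tpr at 19.7 each. In KO fetal brain Pom121 stood at 4.23 CPM per kb. Nup35 (2.27) and Nup37 (2.81) were the lowest genes of the canonical pore in WT, and both relatives lay lower still. As a share of the summed CPM per kb of all 30 genes, the membrane ring made up 14.7% in WT, 8.37% in KO at day 15 and 13.8% at week 70. The Y complex made up 27.0%, 34.6% and 30.3%. Within the membrane ring, Pom121 went from 23.2 to 4.23 and then to 14.1 CPM per kb, whereas Nup210, Ndc1 and Aaas went down at both steps.

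In the comparison of fetal genotypes (KO minus WT at day 15), 19 of the 30 genes fell, 3 rose (Nup35, Nup37 and Nup43) and 8 were not called, at an adjusted p below 0.05 in edgeR's quasi-likelihood test. The median log2 fold change was -0.34, against 0.03 over all 19147 genes tested. Of all genes tested, 62.6% were called, 30.1% higher and 32.5% lower, so that a call was common in this comparison. The CPM values of the genotypes did not overlap for 24 of the 30 genes, against 68.3% of all genes. Under upper-quartile scaling, which raised the median of all genes from 0.03 to 0.20 and the share of calls that were higher from 48.1% to 60.8%, 6 members were called higher and 16 lower. A correction for transcript length and GC content kept 13 of the 19 falls and none of the 3 rises. It also gained 4 falls and 2 rises, which gave 17 members called lower and 2 higher. Among all 19050 genes in that setting, 4916 were called lower and 4791 higher. Markers of neurons and of other cells moved with genotype, and their part in these results was not tested. Summed CPM of the 7 neuron markers was 5344 to 5915 in WT and 4473 to 4558 in KO (2 higher, 4 lower). For oligodendrocyte markers the ranges were 81.3 to 94.0 and 77.7 to 82.9 CPM (2 higher, 2 lower of 5 tested). Summed CPM of 10 markers of dividing cells was 640 to 804 in WT and 475 to 495 in KO (1 higher, 6 lower). Progenitor markers ran from 1352 to 1437 CPM in WT and from 1147 to 1249 CPM in KO (1 higher, 6 lower). For astrocyte markers the ranges were 350 to 439 and 187 to 190 CPM (1 higher, 3 lower). For microglia markers they were 35.4 to 61.8 and 19.5 to 22.1 CPM (1 higher, 3 lower). Erythroid markers ran from 821 to 934 CPM in WT and from 3001 to 3707 CPM in KO (5 of 5 higher), and endothelial markers from 159 to 216 and from 45.02 to 57.9 CPM (5 of 5 lower). No marker in any of the 8 lists was at 0 throughout a group.

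In the membrane ring, which anchors the pore in the envelope, all 4 genes fell. Its median log2 fold change of -0.717 was the lowest among the substructures of the pore. After the length and GC correction the inner ring was lowest instead (-0.415, against -0.367 for the membrane ring). Pom121, a transmembrane protein needed for new pores in interphase (chr5:135376141-135394546, GRCm38, minus strand), had 131.4, 129.8 and 127.4 CPM in WT and 24.5, 23.2 and 23.1 CPM in KO. The libraries of each genotype lay close together and the gap between genotypes was many times their spread. It fell by 2.42 ± 0.06 on the log2 scale (SE; adjusted p = 1.2e-08, edgeR), a 5.35-fold difference, and had a value of -1.46 after the length and GC correction. Its exons share 665 bases with Nsun5 on the opposite strand, and whether the counting used strand is not given in the sources used here. Nsun5 had 20.8 to 24.6 CPM in the 6 fetal libraries and was not called (log2 fold change 0.11, adjusted p = 0.29, edgeR). Nup210, a transmembrane protein that faces the lumen of the envelope, fell by 0.90 ± 0.06 (SE) in these fetal brains, from 90.3 to 46.9 CPM. After the correction its value was 0.03 and the call was lost. Ndc1, which links the membrane to the inner ring, fell by 0.53, and Aaas, which Ndc1 holds at the pore, fell by 0.48. Both kept their calls after the correction (-0.44 and -0.30).

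In the Y complex, the scaffold of the outer rings, 3 of 9 genes fell, 2 rose and 4 were not called, with a median of -0.07 that became 0.10 under upper-quartile scaling. Nup133, at the stem of the Y, had 53.5, 46.7 and 46.9 CPM in WT and 24.1, 24.4 and 24.1 CPM in KO. The KO libraries were almost identical and far below the WT ones. Nup133 fell by 0.98 ± 0.07 (SE) on the log2 scale, and by 0.52 after the correction. Its exons overlap antisense genes by up to 461 bases, so its count is uncertain to that extent. Nup107, its neighbour in the stem, and Nup160, in an arm, fell by 0.32 and 0.30. Neither was called under upper-quartile scaling (-0.14 and -0.13), and Nup160 was not called after the length and GC correction (-0.10).

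Nup37 and Nup43, small propeller proteins on the arms of the Y, were the genes of the complex that rose. Nup37 had 8.93, 9.23 and 9.90 CPM in WT and 14.2, 12.9 and 17.0 CPM in KO, a log2 fold change of 0.69 ± 0.13 (SE). Nup43 had 11.2, 12.5 and 14.1 CPM in WT and 20.8, 18.2 and 20.5 CPM in KO, a log2 fold change of 0.70 ± 0.12 (SE). The genotypes did not overlap for either gene. After the correction the values were -0.07 and 0.02, neither of them called. Sec13, which also coats vesicles leaving the endoplasmic reticulum, had 67.3, 68.6 and 65.4 CPM in WT and 65.8, 63.98 and 57.0 CPM in KO. These ranges overlapped (log2 fold change -0.07, adjusted p = 0.38, edgeR). Nup85 (-0.12), Seh1l (0.10) and Ahctf1, or ELYS, which seeds pores on chromatin after mitosis (-0.07), were likewise not called. Without a filter on low counts Nup85 was called lower (-0.21). Upper-quartile scaling turned Sec13, Nup85 and Ahctf1 to values above 0 and called Seh1l higher (0.28), whereas the correction turned Ahctf1 to 0.22 and Seh1l to -0.31, both called, with Sec13 called at -0.30, so that the direction of Seh1l depended on the setting.

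In the inner ring, which braces the channel, 4 of 5 genes fell and Nup35 rose. Nup188 had 85.3, 83.8 and 83.5 CPM in WT and 36.8, 33.5 and 34.6 CPM in KO. Both genotypes were tight, and it fell by 1.23 ± 0.06 (SE) on the log2 scale, or by 0.44 after the correction. Nup188 shares up to 492 bases of exon with other annotated genes. Nup205, its structural relative in the ring, fell by 0.36 only, from 128 to 97.1 CPM, and stood at 0.12 after the correction, where it was not called. Nup93, the linker of the ring, and Nup155, next to the membrane, fell by 0.52 and 0.50 and kept their calls. Nup35 had 8.27, 7.78 and 6.83 CPM in WT and 12.2, 12.01 and 11.6 CPM in KO. It rose by 0.68 ± 0.12 (SE), and after the correction its value was 0.11 with no call. Among its reads, those from 131 bases shared with Dusp19 on the same strand cannot be told apart.

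Of the central channel, Nup62, which carries the repeats that receptors bind, had 55.6, 56.0 and 57.1 CPM in WT and 29.0, 30.6 and 27.6 CPM in KO. It fell by 0.91 ± 0.07 (SE) on the log2 scale and by 0.39 after the correction. Nup54, its partner in the channel, had 36.03, 38.1 and 35.4 CPM in WT and 37.8, 38.7 and 39.3 CPM in KO. The groups overlapped and it was not called (0.12). Its direction depended on the setting, since it was called higher under upper-quartile scaling (0.29) and lower after the correction (-0.20). Nup98, a mobile repeat protein whose gene also encodes the Y complex scaffold Nup96, had 77.9, 74.3 and 67.1 CPM in WT and 44.4, 44.8 and 51.5 CPM in KO. It fell by 0.60 ± 0.08 (SE), and its call was lost after the correction (-0.16). Rae1, the mRNA export factor bound to Nup98, fell by 0.19, a call that was lost without WT replicate 2 (adjusted p = 0.098, edgeR), without KO replicate 3 (adjusted p = 0.072, edgeR), under upper-quartile scaling (-0.01) and after the correction (-0.10).

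On the cytoplasmic side, Nup214, which docks export complexes, had 68.0, 63.4 and 61.3 CPM in WT and 25.6, 27.0 and 26.8 CPM in KO. It fell by 1.24 ± 0.07 (SE) on the log2 scale, with no overlap, and by 0.40 after the correction. Its partner Nup88 had 89.2, 91.4 and 87.4 CPM in WT and 79.8, 80.9 and 82.8 CPM in KO, and was not called (-0.10, adjusted p = 0.13, edgeR), except without a filter on low counts (-0.19) and after the correction (-0.26). Gle1, which activates the helicase that releases mRNA from the pore, had 68.4, 72.5 and 67.1 CPM in WT and 56.9, 53.5 and 51.2 CPM in KO. It fell by 0.33, with a value of 0.03 and no call after the correction.

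All 3 basket genes fell by similar amounts. Nup50, which helps to release cargo from importins, had 83.5, 87.1 and 78.5 CPM in WT and 55.5, 56.3 and 53.5 CPM in KO and fell by 0.55 ± 0.06 (SE). Nup153, the anchor of the basket, fell by 0.52 and Tpr, its long coiled-coil strut, by 0.49. All 3 kept their calls after the correction at -0.20 to -0.25. The relatives were low and not called in the main setting: for Nup210l the WT libraries held 86, 89 and 90 counts and the KO libraries 98, 74 and 89, and for Nup62cl the WT libraries held 18, 12 and 19 and the KO libraries 14, 24 and 25. Nup210l was called higher after the correction (0.73 against 0.27 before it), and Nup62cl was called higher under upper-quartile scaling (0.81 against 0.64) and stood at -0.15 after the correction.

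**Figure D3:**
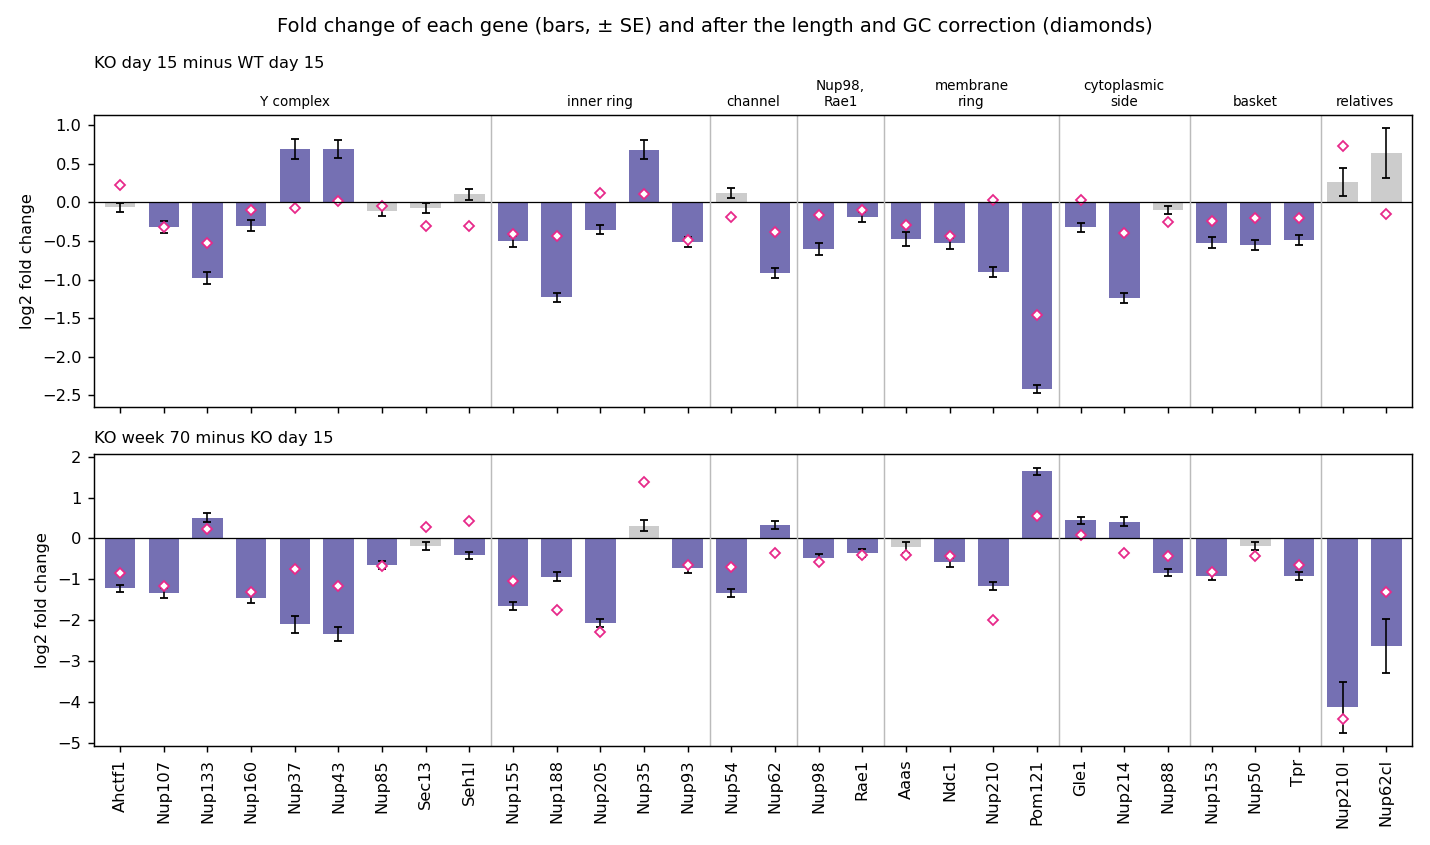
Log2 fold change of each of the 30 genes in both comparisons, grouped by substructure. Bars are fold changes (purple, called; grey, not called) with SE, and diamonds are the values after the length and GC correction; Pom121 fell by 2.42 in the fetal comparison and rose by 1.64 with age.

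The fold changes of the members ran with transcript composition, as did those of all genes. Over the 30 members, Spearman's rho of the fetal fold change was -0.65 with GC content and -0.55 with transcript length, against -0.48 and -0.37 over all 19050 genes with both values. These are descriptions across genes of the same 6 libraries. The 3 members of 55 to 60% GC (Nup210, Nup62 and Pom121) had a median of -0.91, against -0.48 for the 2749 protein-coding genes in that range. The 7 of 40 to 45% GC, which include the 3 genes that rose, had a median of 0.64, against 0.26 for 2837 genes. Whether this trend is technical was not tested.

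**Figure D4:**
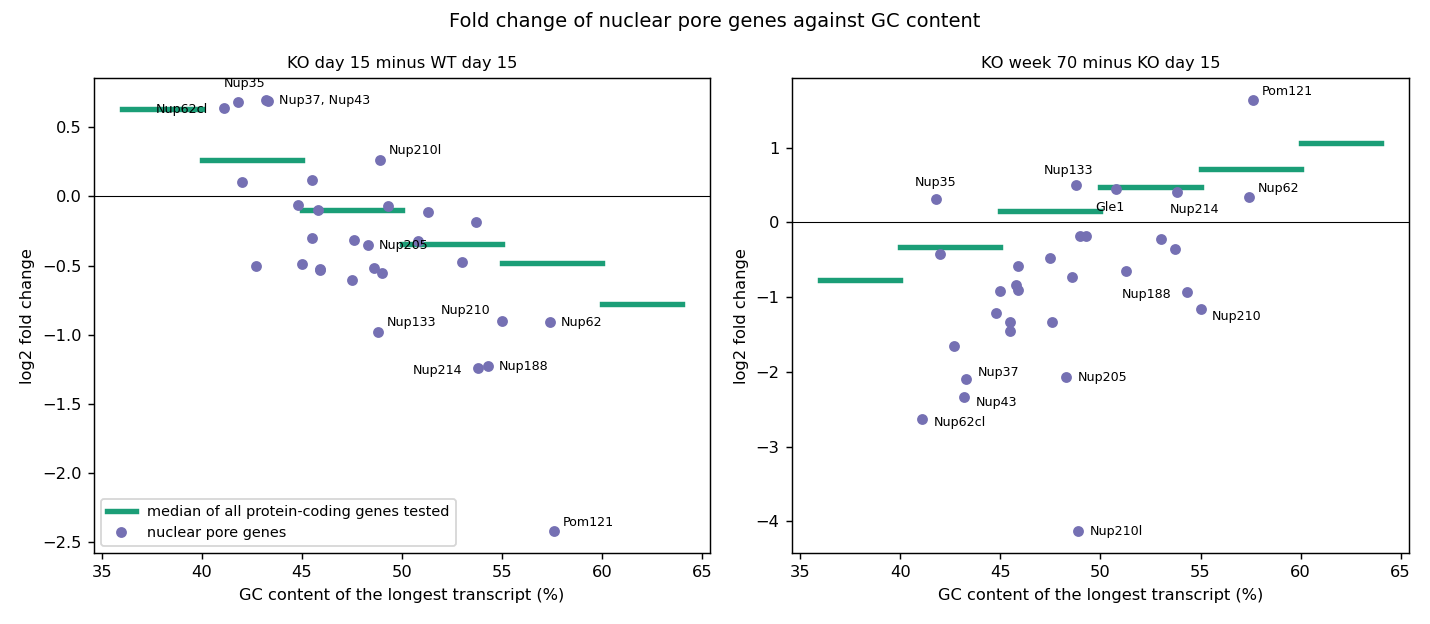
Log2 fold change of the nuclear pore genes (points) against the GC content of the longest transcript in both comparisons. Green bars are medians of all protein-coding genes tested in ranges of GC content, the outermost ones standing for all genes below 40% and above 60%; in the fetal comparison the medians went down from 0.63 to -0.78 with rising GC content.

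Between the ages (KO at week 70 minus KO at day 15), 21 of the 30 genes fell, 5 rose (Pom121, Nup133, Gle1, Nup214 and Nup62) and 4 were not called. The median log2 fold change was -0.78, against -0.19 over 20000 genes. In this comparison 82% of all genes were called, 37.6% higher and 44.4% lower, and 28 of the 30 members did not overlap between the ages, against 87.9% of all genes. Both comparisons use the same 3 KO fetal libraries, so that an error in those libraries moves both in opposite directions. With upper-quartile scaling, which took the median of all genes from -0.19 to -0.44, Pom121 alone of the 5 rises stayed called and 24 genes were called lower. After the length and GC correction 23 members were called lower and 4 higher, with a median of -0.652. Among all 19896 genes in that setting the median was 0.075, with 7218 called lower and 8350 higher. The make-up of the tissue differed as well, and its part was not tested. Summed CPM of 10 markers of dividing cells was 475 to 495 at day 15 and 7.37 to 11.4 at week 70 (10 of 10 lower), and that of 6 oligodendrocyte markers went from between 77.7 and 82.9 CPM to between 13290 and 13410 CPM (6 of 6 higher). Progenitor markers went from between 1147 and 1249 CPM to between 226 and 243 CPM (6 of 7 lower), and astrocyte markers from between 187 and 190 CPM to between 6112 and 6549 CPM (5 of 5 higher). Neuron markers went from between 4473 and 4558 CPM to between 7838 and 8218 CPM (4 higher, 3 lower). For microglia markers the ranges were 19.5 to 22.1 and 332 to 409 CPM (5 of 5 higher). Endothelial markers ran from 45.02 to 57.9 CPM and then from 269 to 297 CPM (5 of 5 higher). Erythroid markers ran from 3001 to 3707 CPM and then from 433 to 728 CPM (5 of 5 lower).

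In the membrane ring, Pom121 had 24.5, 23.2 and 23.1 CPM at day 15 and 73.7 and 83.4 CPM at week 70. It rose by 1.64 ± 0.10 (SE) on the log2 scale (adjusted p = 5.9e-08, edgeR) and by 0.54 after the correction, still called. Even so, both week 70 libraries lay below all 3 WT fetal libraries. Nsun5, on the opposite strand, was at 9.42 and 9.72 CPM at week 70 and fell by 1.38. Nup210 fell by 1.16, to 22.6 CPM, and by 2.00 after the correction. Ndc1 fell by 0.59, and Aaas, at 15.4 CPM in both week 70 libraries, was not called (-0.22), but was called lower under upper-quartile scaling (-0.47) and after the correction (-0.42).

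Of the Y complex, 7 of 9 genes fell, Nup133 rose and Sec13 was not called, with a median of -1.22. Nup43 fell from 20.8, 18.2 and 20.5 CPM to 3.95 and 4.48 CPM, a log2 fold change of -2.33 ± 0.17 (SE). Nup37 fell from 14.2, 12.9 and 17.0 CPM to 3.29 and 4.07 CPM, a log2 fold change of -2.10 ± 0.21 (SE). Both thus lay below all libraries of either fetal genotype, and the correction left falls of 1.15 and 0.74. Nup160, Nup107 and Ahctf1 fell by 1.45, 1.34 and 1.22, Nup85 by 0.65 and Seh1l by 0.42, with Seh1l at 0.43 and called higher after the correction. Nup133 went from 24.1, 24.4 and 24.1 CPM to 33.1 and 40.4 CPM. It rose by 0.50 ± 0.11 (SE), a call lost under upper-quartile scaling (0.25) and after the correction (0.23). Sec13 had 61.7 and 56.0 CPM at week 70, overlapping the KO fetal libraries (-0.18, adjusted p = 0.10, edgeR). It was called lower under upper-quartile scaling (-0.43) and without KO day 15 replicate 3 (-0.24), and higher after the correction (0.28), so its direction depended on the setting.

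By summed CPM the inner ring had the lowest ratio of week 70 to day 15 among the substructures of the pore, whereas by median log2 fold change the Y complex was lowest (-1.22, against -0.94 for the inner ring). After the length and GC correction the inner ring had the lowest median (-1.03, against -0.739 for the Y complex). Nup205 fell from 99.0, 93.8 and 98.6 CPM to 23.7 and 25.9 CPM, by 2.07 ± 0.10 (SE) on the log2 scale (adjusted p = 9.8e-09, edgeR), a 4.20-fold difference, and had a value of -2.29 after the correction. Its relative Nup188 fell by 0.94, from 36.8, 33.5 and 34.6 CPM to 18.7 and 20.5 CPM. Taken side by side, Nup188 was 84.2, 34.96 and 19.6 CPM and Nup205 was 128, 97.1 and 24.8 CPM in WT, KO day 15 and KO week 70, so that the larger drop lay at the genotype step for Nup188 and at the age step for Nup205. After the correction the larger drop lay at the age step for both, with values of -0.44 and -1.76 for Nup188 and of 0.12 and -2.29 for Nup205. Nup155 fell by 1.65 and Nup93 by 0.73. Nup35 had 16.7 and 15.1 CPM at week 70, above every fetal library, and was not called (0.31, adjusted p = 0.059, edgeR). It was called higher in a fit of all 8 libraries (0.41), without KO week 70 replicate 2 (0.39) and after the correction (1.37).

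In the channel, Nup62 had 39.1 and 39.8 CPM at week 70 and rose by 0.34 ± 0.10 (SE), whereas Nup54 fell by 1.33 ± 0.11 (SE), to 16.7 and 16.1 CPM. The rise of Nup62 was not called under upper-quartile scaling (0.09) and was a called fall of 0.36 after the correction. Nup98 fell by 0.48, to 35.7 and 36.4 CPM, and Rae1 by 0.36.

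Of the cytoplasmic side, Gle1 and Nup214 rose and Nup88 fell. Gle1 had 81.0 and 75.8 CPM at week 70, above all fetal libraries of both genotypes, and rose by 0.44 ± 0.09 (SE). Nup214 had 34.4 and 41.0 CPM and rose by 0.41 ± 0.11 (SE), still below the WT fetal libraries. Neither rise was called under upper-quartile scaling (0.19 and 0.16), and after the correction Gle1 stood at 0.07 with no call and Nup214 was called lower at -0.36. Nup88 had 49.0 and 48.4 CPM and fell by 0.84 ± 0.08 (SE), or by 0.42 after the correction.

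Of the basket, Tpr fell by 0.92 ± 0.09 (SE), from 136.1, 143.6 and 149.9 CPM to 78.5 and 83.4 CPM, and Nup153 by 0.91, while Nup50 overlapped between the ages and was not called (-0.19, adjusted p = 0.074, edgeR). Nup50 was called lower under upper-quartile scaling (-0.43), under RLE scaling (-0.22) and after the correction (-0.44). The relatives were close to undetected at week 70. Nup210l had 9 and 0 counts there, against 98, 74 and 89 counts in KO at day 15, and Nup62cl had 1 and 5, against 14, 24 and 25. Both were called lower, Nup62cl not after the correction.

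The KO fetal libraries enter both comparisons, so opposite directions in the 2 steps are not independent, and the pairs of values are given side by side only. The fetal and age values were -2.42 and 1.64 for Pom121, -0.98 and 0.50 for Nup133, -0.91 and 0.34 for Nup62, -1.24 and 0.41 for Nup214, and -0.33 and 0.44 for Gle1. After the length and GC correction they were -1.46 and 0.54 for Pom121, both called. They were -0.39 and -0.36 for Nup62 and -0.40 and -0.36 for Nup214, called lower at both steps. They were -0.52 and 0.23 for Nup133 and 0.03 and 0.07 for Gle1, with no age call for either.

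Further pore proteins carry other names in the table and fall outside the rule. Ranbp2, the main protein of the cytoplasmic filaments (Nup358), was 157.5, 161.8 and 118.8 CPM on average in WT, KO day 15 and KO week 70. It was not called between genotypes (0.08; 0.25 and called under upper-quartile scaling). With age it fell by 0.55, but was called higher after the length and GC correction (0.53). Rangap1, which Ranbp2 holds at the pore and which drives hydrolysis of GTP by Ran, was 178, 69.1 and 290 CPM: it fell by 1.33 and rose by 1.97, and stood at -0.86 and 1.37 after the correction, both called. Nupl2 (Nup42) was not called in either comparison (-0.04 and -0.39), except with age under upper-quartile scaling (-0.64). Nupl1 (Nup58), the remaining channel protein, reached no more than 11 counts per library and did not pass the filter for testing. How reads were assigned to it is not given in the sources used here, so this count is not read as its level of expression.

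Of 60 tested genes that work with the pore (transport receptors, the Ran cycle, mRNA export, and the lamina and nuclear membrane), 34 fell and 12 rose in the fetal comparison, with a median of -0.27. That is set beside 32.5% lower and 30.1% higher among all genes. With age 28 fell and 21 rose, with a median of -0.15, beside 44.4% lower and 37.6% higher among all genes. Both alternatives moved these counts. In the fetal comparison 25 fell and 20 rose under upper-quartile scaling, beside 4915 and 7627 of all 19147 genes. After the length and GC correction 23 fell and 8 rose, beside 4916 and 4791 of all 19050 genes. With age 33 fell and 13 rose under upper-quartile scaling, beside 9969 and 6488 of all 20000 genes. After the correction 29 fell and 21 rose, beside 7218 and 8350 of all 19896 genes. Lamina and nuclear membrane genes had 11 falls and no rise among 14 between the genotypes, but 7 falls and 2 rises under upper-quartile scaling and 5 and 2 after the correction. Between the genotypes the importins had 9 falls and 2 rises among 17, the exportins 4 and 2 among 7, and the Ran cycle 3 and 3 among 7. Under upper-quartile scaling these were 7 and 6, 3 and 2, and 3 and 4. After the correction they were 8 and 0, 4 and 0, and 2 and 1. Genes of mRNA export had 7 falls and 5 rises among 15 between genotypes, and 11 falls and 2 rises with age. Between genotypes they had 5 falls and 6 rises under upper-quartile scaling, and 4 and 5 after the correction. With age they had 13 falls and no rise under upper-quartile scaling, and 11 and none after the correction. Lmnb1, the lamin B1 of the lamina, fell by 1.72 in KO fetuses, from 330 to 97.6 CPM, and by a further 3.14 with age, to 11.8 CPM. Lmna, the A-type lamin gene, fell by 1.51 in KO fetuses and rose by 2.84 with age, with WT replicate 1 at 43.7 CPM against 16.1 and 19.3 CPM in the other WT libraries. Syne2, a linker from the envelope to the cytoskeleton, fell by 2.85 with age. Thoc1 and Thoc7, subunits of the complex that loads mRNA for export, rose by 0.82 and 0.81 in KO fetuses and fell by 2.52 and 1.66 with age. After the correction Thoc1 stood at 0.35 and -1.50 and Thoc7 at 0.31 and -0.30, all of them called. The alternatives for the partner genes were chosen after seeing the data.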

How the data were processed

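Per the file headers, the authors deposited raw counts of reads for each gene and library in 1 table. The submitters' processing notes name FastQC, cutadapt, Trimmomatic, HISAT2, featureCounts, edgeR and the builds GRCm38 and GRCm39, with no versions, roles or order; which build was counted and whether strand was used are not given in the sources used here. Per the labels' protocols, poly-T beads captured the mRNA, and random hexamers primed the cDNA of the fragments. The members, substructures, partner and marker lists were chosen with earlier results of these data known.

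Groups came from the sample titles. Genes passing filterByExpr were scaled by TMM and tested with edgeR 4.0.16 (R 4.3.3; glmQLFit and glmQLFTest) within each comparison, with Benjamini-Hochberg adjustment over all genes and a threshold of 0.05. CPM came from TMM over all 8 libraries, and CPM per kb from the summed exon length in GENCODE M21 (GRCm38), which matched 97.3% of gene identifiers and all 30 members. The length and GC correction took a smooth over both properties of how far every library lay from the average of a gene (mgcv 1.9.3), and used it as the offset of the fit. Alternatives were upper-quartile and RLE scaling, no filter, a mean of at least 10 counts, DESeq2 1.42.0, all libraries in 1 fit, a replicate block, and leaving out each library. The script was tested on simulated data. Named in full were the member with the largest change in each substructure and comparison, members called in opposite directions, and members called in neither. Of the partner genes, the 2 largest rises and falls per comparison were named, plus Ranbp2 and Rangap1; the other pore proteins outside the rule, and further library values, were chosen after their values were seen. A count of 0 allows up to 3 counts, for counting error only. That is 0.144 to 0.213 CPM by library on raw total counts, before the TMM scaling used for the CPM above.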

Additional observations from a re-analysis of the deposited data

How the results depend on the processing

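DESeq2, RLE scaling and the filter on mean counts left the fetal calls of all 30 genes as they were; with age, Nup50 alone gained a call, under RLE scaling and the filter. Leaving out 1 library moved the fetal median between -0.394 and -0.318 and the count of falls between 18 and 19; with age the rises ranged from 5 to 6 and the falls from 21 to 22. Depth limits the relatives Nup210l and Nup62cl, with at most 98 counts in any library. At week 70 it also limits Nup37, with 50 and 59 counts, and Nup43, with 60 and 65. The causes of the shifts given here were not tested.

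Under upper-quartile scaling the fetal median was -0.167 with 6 genes called higher, the Y complex median 0.104, and Ahctf1, Nup85, Nup88 and Sec13 stood at 0.106, 0.057, 0.074 and 0.104. With age the median was -1.033, with 1 gene called higher, and the share of all calls that were higher went from 45.8% to 39.4%. The fetal median was -0.431 with no filter and -0.379 with all libraries in 1 fit, which gave -0.684 with age.

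The length and GC correction gave fetal medians of -0.205 alone and -0.204 with the replicate block, and the age medians -0.652 and -0.646, the latter with 3 genes called higher. The medians of all genes in these settings were 0.012 and 0.014 in the fetal comparison and 0.075 and 0.064 with age. Fetal values that turned sign, without and with the block, were 0.221 and 0.222 for Ahctf1, 0.034 and 0.035 for Gle1, 0.124 and 0.126 for Nup205, 0.030 and 0.030 for Nup210, -0.074 and -0.077 for Nup37, -0.195 and -0.194 for Nup54, -0.152 and -0.162 for Nup62cl, and -0.307 and -0.304 for Seh1l. With age they were -0.356 and -0.310 for Nup214 and for the median of the cytoplasmic side, -0.357 and -0.337 for Nup62, 0.278 and 0.212 for Sec13, and 0.426 and 0.414 for Seh1l. With the block added to the correction, the fetal calls of Aaas (-0.297, adjusted p = 0.054, edgeR) and Nup54 (adjusted p = 0.058, edgeR) were lost.

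Deviations from the group means correlated, for samples with the same number, at -0.145, -0.175 and -0.153 between the fetal genotypes and at 0.032 and 0.007 between the ages, over 21263 genes. Fetal samples with different numbers had values from 0.061 to 0.087. Deviations within a group sum to 0, so these values constrain one another and cannot show whether samples were paired. With the replicate block alone, 3 members were called higher and 19 lower in the fetal comparison (11185 genes in all, against 11993) and 5 and 21 with age (14876, against 16390), and no sample correlated best with its own number between the fetal genotypes.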
